A study of Ovis aries with 10 samples.

Results

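MiR-374a and miR-374b are a pair of related microRNAs (miRNAs), and the probes oar-miR-374a and oar-miR-374b are 2 of the 207 probes on an array of which 55 are control probes and the rest measure miRNAs. The methods describe a custom ovine design and the probe names are ovine, while the labelling protocol names a layout file for mouse, and which design was printed was not tested. The probes were taken by name and not by a cut on their values, though with earlier results of these data known. The array was run on caudal lung segments of 5 female merino sheep, numbered 2, 3, 6, 7 and 10, each 9 months old in the sample labels and euthanised at 4 weeks. Each sheep gave 1 segment labelled Fibrosis, from lung infused with bleomycin, a drug that injures lung epithelium, and 1 segment labelled Normal, which serves as the saline control of the same animal. The normal segments are therefore not lung of untreated animals, and the methods state that sheep with severe fibrosis were picked for the array. The fibrotic segment is the left one in sheep 2 and 3 and the right one in sheep 6, 7 and 10 in the labels, whereas the methods place bleomycin on the left in every sheep, so values are also given by side.

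MiRNAs are short RNAs that lower the output of messenger RNAs by pairing with them through a few bases near their own 5′ end, called the seed. The miR-374 family is conserved in mammals, and in human both hairpins are cut from the RNA of FTX, a long noncoding gene of the X-inactivation centre. In the sheep assembly ARS-UI_Ramb_v3.0 both hairpin genes, MIR374A and MIR374B, lay side by side on the X chromosome, with 0 annotated genes between them. Neither lay within another annotated gene, and ZCCHC13 was a neighbouring gene. MiR-545 and miR-421, the other miRNAs of the human host gene, were not analysed here.

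Both members gave signal on all 10 arrays, and neither was below an intensity of 1, the floor set before the log2 step. Listed for sheep 2, 3, 6, 7 and 10 in turn, the intensity of oar-miR-374a was 150, 328, 39.4, 254 and 83.5 on the normal arrays. On the fibrotic arrays it was 102, 171, 47.8, 110.2 and 246. The fibrotic segment was dimmer in sheep 2, 3 and 7 and brighter in sheep 6 and 10, and the brightest fibrotic segment, in sheep 10, lay below the normal segments of sheep 3 and 7. For the same animals, oar-miR-374b read 277, 572, 47.9, 454 and 95.7 on the normal and 189, 389, 39.0, 178 and 199 on the fibrotic arrays. Here the fibrotic segment was dimmer in all sheep but sheep 10. Normal and fibrotic segments overlapped for both members, and both arrays of sheep 6 were the dimmest of the 10. A probe's intensity also depends on how well it binds, so the levels place the arrays in order and do not compare the amounts of the 2 miRNAs. On single arrays oar-miR-374a was brighter than between 61.8% and 69.7% of the miRNA probes and oar-miR-374b than between 60.5% and 73.0%.

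**Figure D1:**
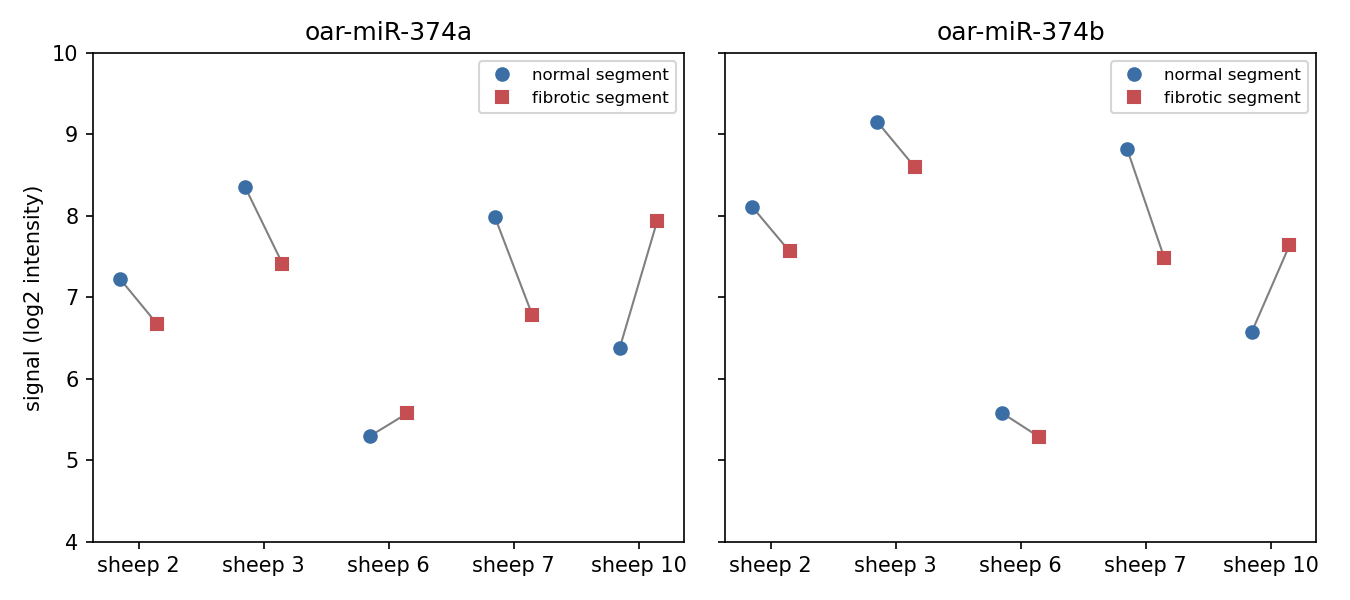
Log2 intensity (vertical axis) of oar-miR-374a (left panel) and oar-miR-374b (right panel) in the normal (circles) and fibrotic (squares) segment of each sheep, with a line joining the segments of 1 animal. Lines slope down in sheep 2, 3 and 7 and up in sheep 10 in both panels, while in sheep 6 the change is 0.28 for oar-miR-374a and -0.30 for oar-miR-374b.

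The comparison of fibrotic with normal segments asks whether miR-374 differs with fibrosis within an animal. On the log2 scale the differences of oar-miR-374a, fibrotic minus normal, were -0.56, -0.94, 0.28, -1.21 and 1.56, listed as above by sheep. As folds this ran from 2.31 times lower in the fibrotic segment of sheep 7 to 2.95 times higher in that of sheep 10. The normal arrays averaged 7.05 ± 1.24 and the fibrotic arrays 6.88 ± 0.89 in log2 signal (SD, n = 5 each). The mean change was -0.17 with a standard error of 0.44 and a 95% confidence interval from -1.28 to 0.93 (limma with the sheep as a block, Benjamini-Hochberg adjusted p = 0.840). The interval spans a fibrotic level of 0.411 to 1.91 times the normal one, so these arrays leave a change of up to about that size in either direction unresolved. Over the 5 sheep the exact sign-flip permutation test gave p = 0.813 (two-sided, smallest possible p 0.0625).

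For oar-miR-374b the differences were -0.55, -0.55, -0.30, -1.35 and 1.06. Sheep 10 alone had the higher level in the fibrotic segment, by 2.08 times. Log2 signal averaged 7.65 ± 1.52 on normal and 7.31 ± 1.22 on fibrotic arrays (SD, n = 5 each). The mean change of -0.34 had a standard error of 0.35 and a 95% confidence interval from -1.22 to 0.54 (limma adjusted p = 0.615, exact sign-flip permutation test p = 0.438, two-sided). A lower fibrotic level in at least 4 of 5 sheep, as oar-miR-374b had, was seen for 39 miRNAs (25.7% of all on the array), so its count of 4 is common there.

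Neither member passed an adjusted p under 0.05 in limma, and nor did any other miRNA on the array (0 called, 0%), while 18 had an unadjusted p under 0.05. Of these 18, 8 were lower in the fibrotic segments (5.26% of all miRNAs), and neither member was among them, with unadjusted p of 0.708 and 0.376 in the same limma fit. The methods' t-test was applied in the study to each sheep by itself, and the replicate spots were not analysed here. The same kind of test over sheep, which differs from it in unit and input, called 1 miRNA with the segments paired at the study's threshold and 0 after Benjamini-Hochberg adjustment, in both cases without either member. Unpaired, it called 2 and 0. Single sheep decided the size of both means. Without sheep 10 the change was -0.61 for oar-miR-374a and -0.69 for oar-miR-374b (limma adjusted p 0.526 and 0.512, unadjusted p 0.105 and 0.0362), and without sheep 7 it was 0.084 and -0.086. Leaving out sheep 3 also took the mean of oar-miR-374a to the other side of 0, at 0.018. With arrays centred on their control probes the changes were 0.082 and -0.082, while the median change of all miRNAs went from -0.02 to 0.24. Such centring moves every mean change by the same amount. Both members therefore had to stay below that median, which says nothing about their direction. Lung segments are mixed tissue, in which fewer cells that make a miRNA and less of it per cell cannot be told apart.

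Differences between animals were large for both members. The mean log2 signal of the 2 segments of a sheep for oar-miR-374a was, from low to high, 5.44 (sheep 6), 6.95 (sheep 2), 7.16 (sheep 10), 7.39 (sheep 7) and 7.89 (sheep 3). For oar-miR-374b the order was 5.43 (sheep 6), 7.11 (sheep 10), 7.84 (sheep 2), 8.15 (sheep 7) and 8.88 (sheep 3). Sheep 6 was the lowest and sheep 3 the highest for both, and sheep 2 and 10 changed places. The highest array exceeded the lowest 8.35 times for oar-miR-374a and 14.7 times for oar-miR-374b. Among the 59 miRNAs whose log2 signal averaged 5 or more, the standard deviation over the 10 arrays was 1.02 for oar-miR-374a, with 3 miRNAs more variable, and 1.31 for oar-miR-374b, with 1 more variable, against a median of 0.41. The standard deviation of sheep means was 0.92 and 1.31, against a median of 0.37 over the 59, and that of the fibrotic-minus-normal changes 1.12 and 0.87, against a median of 0.34. In sheep means 4 of the 59 varied more than oar-miR-374a and 1 more than oar-miR-374b, and in changes 1 and 4 did.

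A test among the 5 animals was added after these values had been seen. With condition in the model, limma gave an F statistic of 3.49 for oar-miR-374a (adjusted p = 0.253) and 11.2 for oar-miR-374b (unadjusted p = 0.00817, adjusted p = 0.155). At an adjusted p under 0.05 this F test in limma called 0 miRNAs (0% of all on the array), and 40 had an unadjusted p under 0.05. Over the 59 brighter miRNAs alone the adjusted p of oar-miR-374b was 0.0378 and that of oar-miR-374a 0.0913, and 19 of the 59 passed. Without sheep 7 the adjusted p of oar-miR-374b was 0.0283, with 27 miRNAs passing. Without sheep 6 the F statistics were 0.580 and 2.91, with adjusted p of 0.755 and 0.375. Without sheep 10, whose segments differed most for oar-miR-374a, they were 12.5 and 41.8, with adjusted p of 0.189 and 0.167, so single animals moved them both ways.

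Across the 10 arrays the members moved together. Their log2 signals had a Pearson r of 0.93 and a Spearman rho of 0.94, given as a description, because the arrays are pairs from 5 animals and not independent samples. The arrays farthest from the median of oar-miR-374a were those of sheep 6, and without them r was 0.83 over the other 8. The changes within animals had the same sign for both members in sheep 2, 3, 7 and 10 and opposite signs in sheep 6.

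**Figure D2:**
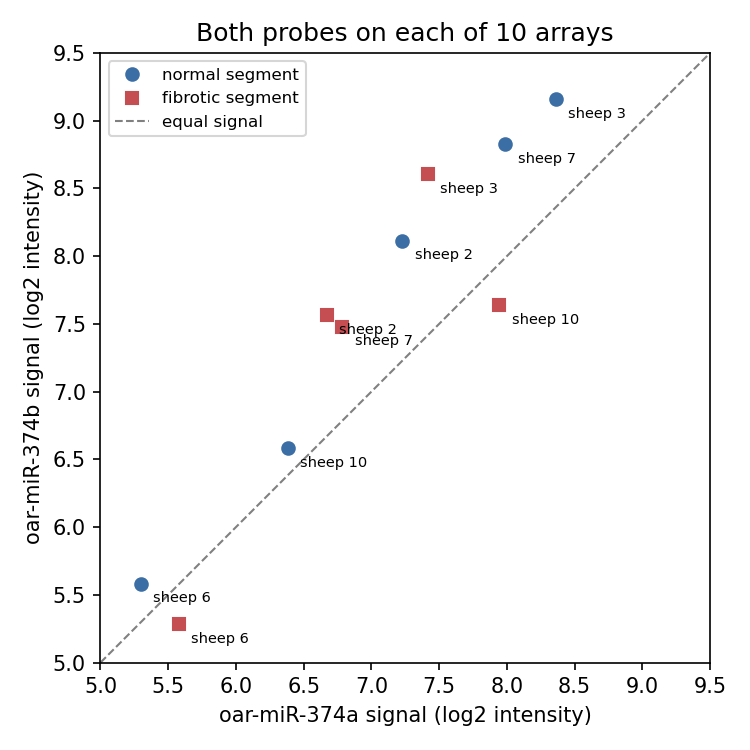
Log2 intensity of oar-miR-374a (horizontal axis) against oar-miR-374b (vertical axis) on each of the 10 arrays, with normal segments as circles, fibrotic ones as squares and a dashed line at equal signal. The points run along the line with r = 0.93, sheep 6 stands at the low end, and only the fibrotic segments of sheep 6 and 10 lie below the line.

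Other families on the array give a scale for this likeness. Among the 59 brighter miRNAs there were 34 pairs with the same number and arm but another letter in their names, over 10 families, and many of these pairs share a member. Most of the 34 are pairs of let-7 probes. For the 33 pairs other than miR-374 the Pearson r ran from -0.49 to 0.98 with a median of 0.81, and 6 of them were above that of miR-374. The log2 ratio within a pair had a standard deviation over the arrays of 0.52 for miR-374, against a median of 0.30 for the others, of which 4 were larger.

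The log2 ratio of oar-miR-374a to oar-miR-374b was -0.89, -0.80, -0.28, -0.84 and -0.20 on the normal arrays of sheep 2, 3, 6, 7 and 10. On their fibrotic arrays it was -0.90, -1.19, 0.29, -0.70 and 0.30. All arrays of sheep 6 and 10 lay above all arrays of sheep 2, 3 and 7. It averaged -0.60 ± 0.33 on normal and -0.44 ± 0.69 on fibrotic arrays (SD, n = 5 each). The mean change was 0.16 with a standard error of 0.18, higher in 3 of 5 sheep (p = 0.375, exact sign-flip permutation, two-sided). Centring of arrays cannot alter this ratio, since it cancels between the probes, but its size on any array mixes amount with probe binding, so only differences between arrays can be read.

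Taken by side, the ratio was lower in the left than in the right segment of all 5 sheep. The differences, left minus right, were -0.01, -0.39, -0.58, -0.14 and -0.50, with a mean of -0.32 and a standard error of 0.11. An exact two-sided sign-flip permutation gave p = 0.0625, the lowest value that 5 sheep allow. This is also the comparison of the bleomycin-infused with the saline-infused segment if the side given in the methods is taken. Among the 33 other name pairs, 8 (24.2%) had a ratio that differed in 1 direction by side in all 5 sheep, and 3 did so by sample label. Most of these 8 are pairs of let-7 probes that share members, so the share rests largely on 1 family. The members taken singly had differences in both directions by side. Left minus right was -0.56, -0.94, -0.28, 1.21 and -1.56 for oar-miR-374a and -0.55, -0.55, 0.30, 1.35 and -1.06 for oar-miR-374b, with means of -0.43 and -0.10 (limma adjusted p 0.908 and 0.938).

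**Figure D3:**
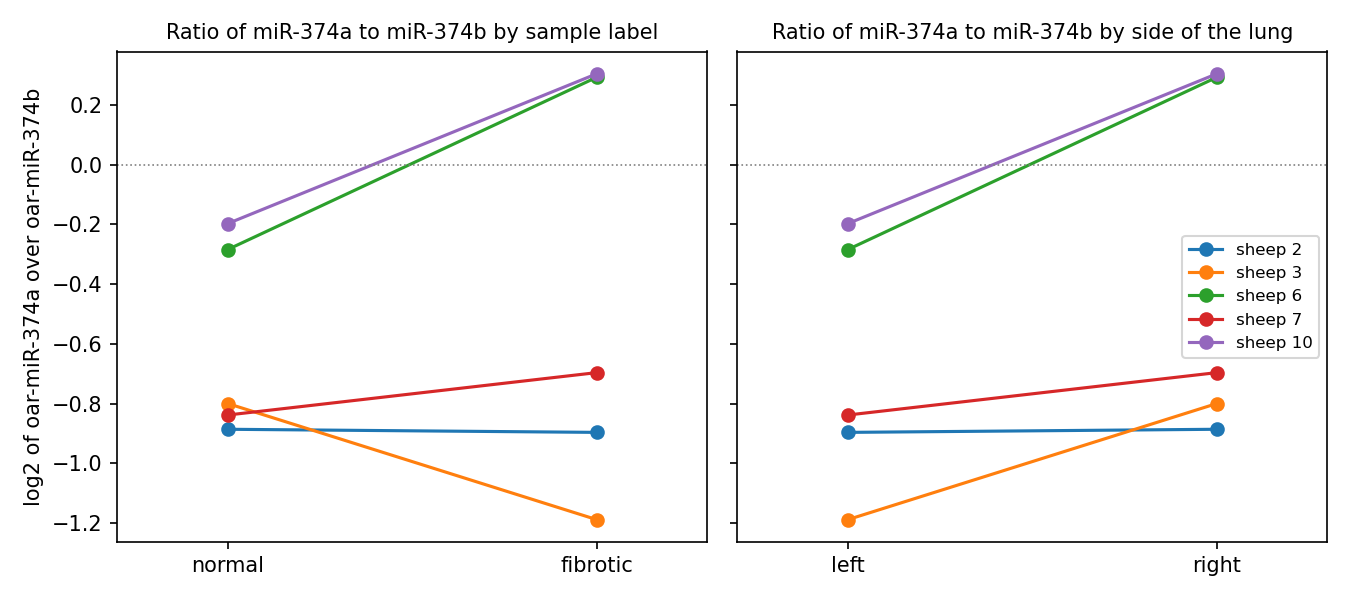
Log2 ratio of oar-miR-374a to oar-miR-374b (vertical axis) by sample label (left panel, normal and fibrotic) and by side of the lung (right panel, left and right), with 1 line per sheep. By label the lines cross in direction, with a mean change of 0.16, and by side all 5 lines rise from left to right, the one of sheep 2 by 0.01.

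Across arrays, the miRNAs with the pattern most like the members, besides each other, were probes of the miR-30 and miR-26 families. Not every probe of these families ran with them. With oar-miR-374a the highest Pearson r among the brighter miRNAs was that of oar-miR-374b, followed by 0.91 for oar-miR-26b and 0.91 for oar-miR-30c. With oar-miR-374b it was 0.98 for oar-miR-30c, then 0.93 for oar-miR-374a and 0.92 for oar-miR-30b. With oar-miR-374a and oar-miR-374b in turn, r was also 0.75 and 0.90 for oar-miR-30d and 0.69 and 0.66 for oar-miR-30a-3p. Running the opposite way were oar-miR-30a-5p, with an r of -0.48 and -0.50, and oar-miR-26a, with -0.52 and -0.52. Of the 58 other brighter miRNAs, 8 had an r above 0.8 with oar-miR-374a and 8 with oar-miR-374b, and 6 and 7 had an r below -0.8. Those above 0.8 with oar-miR-374a included oar-miR-10b at 0.88 and oar-let-7b at 0.85. Within animals, oar-miR-30c differed between segments by -0.55, -0.23, 0.08, -0.52 and 0.22, fibrotic minus normal for sheep 2, 3, 6, 7 and 10 in turn. The values for oar-miR-26b were -0.53, -0.15, 0.33, -0.33 and 0.34. Those of oar-miR-30b were -0.35, -0.21, -0.02, -0.72 and 0.04. These 3 were chosen by their correlation over the same arrays, so a likeness of these differences to those of the members follows in part from the choice. Of these 3, 0 passed the test on the mean change (limma adjusted p 0.540, 0.840 and 0.530).

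The miRNAs that ran opposite to the members were picked with their values in view. The lowest r was -0.89 with oar-miR-374a, for oar-miR-143, which is abundant in smooth muscle, and -0.95 with oar-miR-374b, for oar-miR-106b. With arrays centred on their control probes these became 0.093 and 0.41, while the r of the most similar miRNAs rose to between 0.96 and 0.98. That centring subtracts the same control mean from every probe of an array. Such a shared term can by itself raise r, so the rise is not a measure of likeness. Centring on the miRNA median put the most similar ones between 0.82 and 0.92 and left oar-miR-143 at -0.74 and oar-miR-106b at -0.77.

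**Figure D4:**
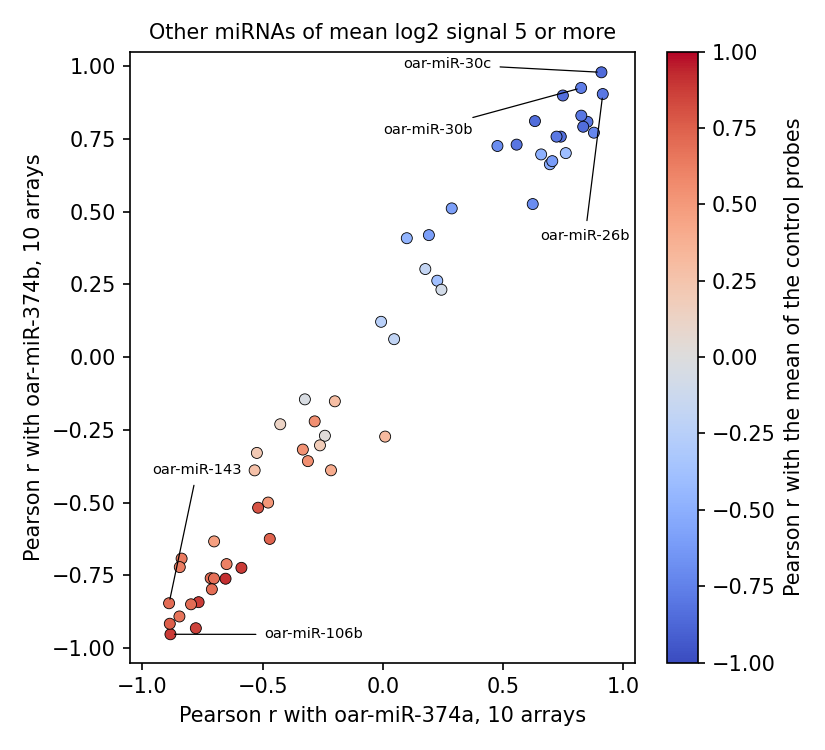
Pearson r over the 10 arrays with oar-miR-374a (horizontal axis) and with oar-miR-374b (vertical axis) for the other miRNAs whose log2 signal averaged 5 or more, coloured by their r with the mean of the control probes. The points follow the diagonal, with oar-miR-30c, oar-miR-30b and oar-miR-26b at the top right in blue and oar-miR-106b and oar-miR-143 at the bottom left in red.

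The members also moved against the control probes of the array. The mean log2 signal of the 55 control probes ran from 6.89 to 8.92 over the 10 arrays. It was 8.92 and 8.12 in the normal and fibrotic segment of sheep 6, where both members were dimmest, and 7.26 and 6.89 in sheep 3, where their sheep means were highest. Its Pearson r was -0.76 with oar-miR-374a, -0.83 with oar-miR-374b and 0.62 with their log2 ratio, as a description over the same 10 arrays. Among the 59 brighter miRNAs the r with the control probes had a median of 0.02, and 12 were below oar-miR-374a and 4 below oar-miR-374b. Fibrotic minus normal, the control mean differed by 0.45, -0.36, -0.80, -0.09 and -0.48, by sheep as above. In sheep 10, where both members were higher in the fibrotic segment, the control probes were lower there, and in sheep 7, where the members were lower by most, the control difference was -0.09. After centring on the control probes, the differences were -1.01, -0.58, 1.08, -1.12 and 2.04 for oar-miR-374a and -1.0, -0.19, 0.50, -1.26 and 1.54 for oar-miR-374b, so that the value of oar-miR-374b in sheep 6 changed sign. The part of the control probes in these values was not tested. The summed intensity of all miRNA probes varied little, from 138979 to 146225.

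**Figure D5:**
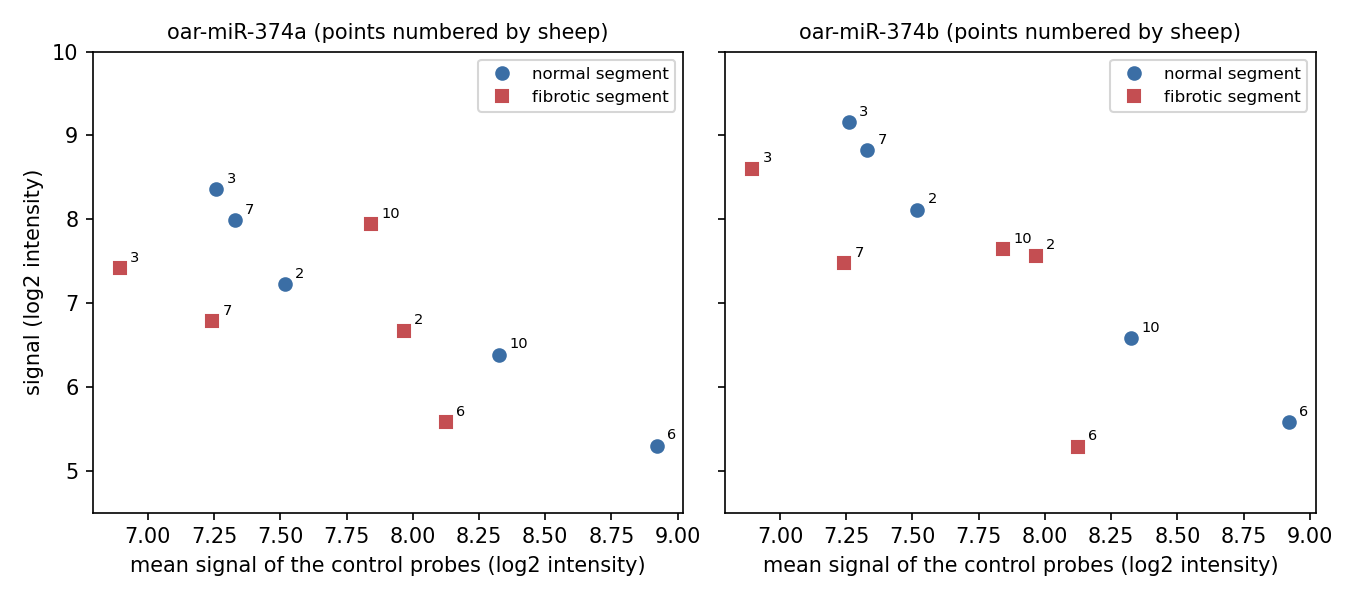
Log2 intensity of oar-miR-374a (left panel) and oar-miR-374b (right panel) against the mean log2 intensity of the 55 control probes on the same array, with normal segments as circles, fibrotic ones as squares and points numbered by sheep. The members are lower where the control probes are brighter, with r = -0.76 and r = -0.83.

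The other miRNAs of the X chromosome lay on both sides of 0. Besides the members, 4 probes had a hairpin gene matched by name on the sheep X chromosome, which does not exclude another source of their signal. These were oar-let-7f of the let-7 family, oar-miR-106a, a relative of miR-17, oar-miR-221, known as a repressor of a cell cycle inhibitor, and oar-miR-362. Their changes were 0.10, -0.10, 0.05 and -0.23, with 2 higher and 2 lower, 0 passing the test, and a median of -0.02, as over all miRNAs (-0.02). These directions depended on scaling, since centring on the control probes gave 0.16 for oar-miR-106a and 0.02 for oar-miR-362, and centring on the miRNA median -0.05 for oar-let-7f and -0.11 for oar-miR-221, which was also at -0.04 relative to miR-103. Their r with oar-miR-374a ran from -0.84 for oar-miR-221 to 0.62 for oar-let-7f, and with oar-miR-374b from -0.71 for oar-miR-362 to 0.53 for oar-let-7f.

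MiRNAs that mark cell types were present on every array, and none of those tested passed an adjusted p under 0.05. The epithelial oar-miR-200a, oar-miR-200b and oar-miR-200c had mean log2 differences, fibrotic minus normal, of 0.67, 0.58 and 0.36, with a summed intensity from 2400 to 4319 in normal and from 3496 to 6712 in fibrotic segments. Of the muscle and mesenchymal miRNAs, oar-miR-133 differed by -0.86, oar-miR-143 by 0.06 (-0.10 after median centring, -0.03 after quantile normalization and -0.03 relative to miR-103) and oar-miR-199a-3p by 0.49, with a summed intensity from 5601 to 20089 in normal and from 8526 to 16306 in fibrotic segments. The lymphocyte miRNA oar-miR-150 differed by -0.30 and had an intensity from 445 to 2107 in normal and from 309 to 1985 in fibrotic segments. Of these 7 probes 0 values were below 1. Their r ran from -0.89 to 0.48 with oar-miR-374a and from -0.85 for oar-miR-143 to 0.73 for oar-miR-150 with oar-miR-374b. In sheep 10, where both members were higher in the fibrotic segment, the log2 difference was -1.10 for oar-miR-150. For oar-miR-133, oar-miR-143 and oar-miR-199a-3p it was -1.43, -0.49 and 0.81 there, and for oar-miR-200a, oar-miR-200b and oar-miR-200c 0.13, 0.31 and -0.34. In sheep 7, where both members were lower, it was -0.48 for oar-miR-150. There the muscle and mesenchymal miRNAs, in the same order, were at -2.34, 0.43 and 0.66 and the epithelial ones at 1.11, 0.75 and 0.71. The part of the cell makeup of the segments in the miR-374 values was not tested.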

How the data were processed

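Total RNA of 10 lung segments was labelled with 1 dye and hybridised by a service provider to an array with 152 miRNA and 55 control probes. What the authors deposited is an intensity for each probe on each array, the mean of 21 spots after background correction in their description. The methods speak of log2 values, but the deposited intensity values were linear, and no scaling between arrays is stated. The single spots were not analysed here, and precision is limited by the number of arrays.

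Intensities below 1 (14.8% of miRNA values, none of a member) were set to 1 and log2 transformed. All 152 miRNAs were fitted with limma 3.58.1 in R 4.3.3 with terms for condition and sheep (the block), with Benjamini-Hochberg adjustment over the 152. The fit was tested on simulated data. Ratios and single changes were also tested by exact sign-flip permutation over the 5 sheep with Python 3.11.15, which cannot go below p = 0.0625. Segments were paired because each sheep gave both. Across miRNAs, their deviations from the group means correlated between -0.67 (sheep 7) and 0.90 (sheep 3). Conditions follow the sample labels. Members, lists and tests were chosen with earlier results of these data known. Named miRNAs were the members, the other probes with a hairpin on the X chromosome, the 3 brighter miRNAs most correlated with each member, and markers of epithelium, muscle or mesenchyme, and blood cells, of which miR-451 was not analysed here. Families were taken from probe names, as no mature sequence was used here. Hairpin genes were matched by name for 151 of 152 probes. Alternatives were 5 other scalings, a floor of 32, a limit of 5 on mean log2 signal, no block, side as covariate, bleomycin on the left, an intensity trend, Student's test over sheep (the study ran it on each sheep by itself) and leaving out each sheep.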

Additional observations from a re-analysis of the deposited data

Results flagged for a closer look

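The change of the log2 ratio of oar-miR-374a to oar-miR-374b, fibrotic minus normal, went down in both sheep whose fibrotic segment is the left one in the labels and up in all 3 sheep whose fibrotic segment is the right one. The mean was -0.20 in sheep 2 and 3 and 0.41 in sheep 6, 7 and 10. These are the values of the comparison by side above, with the sign turned for sheep 6, 7 and 10, and so not a separate observation. The difference between these sheep was not tested by itself. The signal and change of each member and their ratio made 9 sets of 5 values, examined by the gap of the extreme value. No gap passed Dixon's limit of 0.71. The largest was 0.66, for the low oar-miR-374b signal of sheep 6 among the fibrotic segments. With 5 values only a very wide gap can pass, so this does not show that no sample stood apart.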

How the results depend on the processing

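The change of oar-miR-374b stayed below 0 under all 18 alternatives, from -0.69 to -0.08. No adjusted p of either member was under 0.05 in any of them, the lowest being 0.526 for oar-miR-374a and 0.476 for oar-miR-374b. Some of the 18 could not move the mean change of a member and so do not test its direction. These were the floor of 32, the limit on mean signal, no block, the intensity trend and Student's test over sheep, paired and unpaired. The change of oar-miR-374a kept its direction in 15 of 18 and was 0.082 with arrays centred on the control probes, 0.018 without sheep 3 and 0.084 without sheep 7, where leaving out each sheep gave -0.61 to 0.084 for it and -0.69 to -0.086 for oar-miR-374b. With no replicate block the changes were again -0.17 and -0.34, with standard errors of 0.63 and 0.81, so the pairing changed no call. The change of the ratio was 0.061 to 0.30 with a sheep left out, 0.34 after quantile normalization and -0.32 with bleomycin coded on the left. The correlation of the members was 0.80 after quantile normalization, 0.83 without sheep 6 and between 0.83 and 0.98 with a sheep left out in turn. The count of miRNAs at an adjusted p under 0.05 was 0 under all 18 alternatives. The count at an unadjusted p under 0.05, 18 as reported, was 7 with a floor of 32, 9 with the limit on mean signal, where 59 miRNAs were tested, 8 without the replicate block, 3 with bleomycin coded on the left, 9 and 6 by Student's test over sheep, paired and unpaired, and 6 to 26 with a sheep left out, the highest without sheep 6. The F statistic among animals ran from 0.580 to 12.5 for oar-miR-374a and from 2.91 to 41.8 for oar-miR-374b with a sheep left out, lowest without sheep 6 and highest without sheep 10. The causes of these shifts were not tested.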
